A study of Mus musculus with 6 samples.

Results

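Ankrd37 and 9 core genes of the hypoxia response were followed in Mvt-1 cells given insulin or vehicle. They were all probes whose annotated symbol was Ankrd37, Hif1a, Arnt, Egln1, Egln3, Bnip3, Adm, Ndrg1, Kdm3a or P4ha1, which came to 26 of the 45281 probes on the array and to 10 of the 19057 genes named there. Ankrd37 was chosen by its own insulin difference, which was past the threshold in an earlier treatment of these arrays, so its difference is given as a description without a test. The other 9 were chosen by name as parts or targets of the same pathway, with earlier results of these arrays known, and nothing below is independent evidence for their direction. Mvt-1 is a mouse mammary tumour cell line from mice that carried Myc and Vegf transgenes under a mammary tumour virus promoter, and all 6 samples come from this single line. Both groups were grown with 10% serum and then kept without serum for 16 h. The insulin group (3 arrays) had 10 nM insulin in the medium for 90 min. The vehicle group (3 arrays) had vehicle, for a time that the sample labels do not give. The study asked about the insulin receptor in breast cancer, and this comparison concerns early transcript changes after insulin.

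Cells sense oxygen through prolyl hydroxylases, encoded by the Egln genes, which mark the alpha subunit of hypoxia-inducible factor (HIF) for destruction through the von Hippel-Lindau protein when oxygen is present. When oxygen falls, the alpha subunit (Hif1a) is spared, pairs with its constant partner ARNT and activates genes that carry a short core word, ACGTG or GCGTG, near their start. HIF is controlled mainly at the level of the alpha subunit protein, which these arrays do not measure, and insulin and growth factors are known to raise that protein in several cell types without any lack of oxygen.

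The promoters of the members are shown first because that core word is what the pathway reads. RefSeq promoters of GRCm38.p6, which run from 250 bases before to 50 bases after the annotated start, were matched by symbol for 9 of the 10 genes, all but Ndrg1. The 4 printed here belong to Ankrd37, to Hif1a and Kdm3a, the other genes whose normalised groups did not overlap, and to Egln3, whose groups overlapped. Letters in capitals mark ACGTG or GCGTG on either strand, so that a match on the opposite strand reads as CACGT or CACGC.
Ankrd37, chr8:45999801-46000100, minus strand: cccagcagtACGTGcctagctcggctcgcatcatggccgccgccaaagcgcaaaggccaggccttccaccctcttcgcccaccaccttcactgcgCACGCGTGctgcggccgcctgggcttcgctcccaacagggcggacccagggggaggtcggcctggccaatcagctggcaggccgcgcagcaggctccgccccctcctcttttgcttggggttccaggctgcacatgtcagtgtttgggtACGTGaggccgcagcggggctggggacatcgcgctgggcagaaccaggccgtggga
Hif1a, chr12:73907617-73907916, plus strand: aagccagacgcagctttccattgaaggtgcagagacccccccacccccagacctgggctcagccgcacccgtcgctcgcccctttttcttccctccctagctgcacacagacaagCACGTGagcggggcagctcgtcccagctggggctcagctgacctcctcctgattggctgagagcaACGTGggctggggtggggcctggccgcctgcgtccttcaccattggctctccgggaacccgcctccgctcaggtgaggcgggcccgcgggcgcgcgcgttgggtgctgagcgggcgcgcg
Kdm3a, chr6:71632868-71633167, minus strand: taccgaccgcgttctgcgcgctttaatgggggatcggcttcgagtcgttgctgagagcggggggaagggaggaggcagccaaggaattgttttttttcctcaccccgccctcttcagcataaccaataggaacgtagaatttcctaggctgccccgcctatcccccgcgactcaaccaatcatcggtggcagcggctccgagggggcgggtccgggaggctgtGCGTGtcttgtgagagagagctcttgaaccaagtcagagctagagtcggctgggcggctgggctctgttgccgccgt
Egln3, chr12:54203825-54204124, minus strand: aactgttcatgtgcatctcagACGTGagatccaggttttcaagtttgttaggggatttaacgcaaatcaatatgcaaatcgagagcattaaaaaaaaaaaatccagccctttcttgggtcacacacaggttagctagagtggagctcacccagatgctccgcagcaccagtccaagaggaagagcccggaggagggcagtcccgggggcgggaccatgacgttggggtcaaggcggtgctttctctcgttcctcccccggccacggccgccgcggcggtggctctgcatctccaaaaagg

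In the Ankrd37 promoter 4 matches stood, of which ACGTG was found at -241 and at -6 relative to the start, and GCGTG at -155 and -152 on opposite strands, where the matches overlap. Hif1a had 3 matches of ACGTG, 2 of them the opposite strands of a single palindrome. Kdm3a had 1 match of GCGTG, at -27, in the first of its 3 annotated promoters and none in the other two windows. Egln3 had 1 match of ACGTG, at -229. ACGTG was present in 6 of the 9 members' first promoters and GCGTG in 7, against 19.6% and 32.4% of all 32851 promoters. Either word was present in 9 of 9, against 43.8% of all promoters, and 3.86% of all promoters held at least as many matches as Ankrd37. Both words contain a CG pair, and base composition was not matched, so these shares are descriptions. The members were counted by 1 promoter a gene and chosen as parts or targets of this pathway, while the shares cover every annotated promoter. A forkhead core word, GTAAACA, was searched on both strands too, because insulin acts on forkhead factors of the FOXO group. It was present in 0 of the 9 first promoters and in 3.65% of all promoters. With a share that small, 0 of 9 says nothing about the members.

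Each array gave a signal on a linear scale and a detection p-value for every probe. Between 38.9% and 40.3% of probes were detected per array, at a detection p under 0.05, and the lowest signal of a detected probe lay between 79.2 and 80.2. Signals were background-corrected, quantile normalised and put on the log2 scale, and 9478 genes with a probe detected on at least 3 of the 6 arrays were tested with limma, each through its brightest probe. Of them 44 were called at a Benjamini-Hochberg adjusted p under 0.05, or 0.464%, with 12 higher with insulin (0.127%) and 32 lower (0.338%). As a check of the cell type, Krt8 and Krt18, keratins of simple epithelium, were detected on 6 of 6 arrays, with signals of 1756 to 2461.9 and of 367.3 to 472.4. Epcam and Krt19, also epithelial, were detected on 0 arrays, and Cdh1 on 3. Of 12 markers of immune, endothelial, fat and stromal cells, Pdgfra and Pdgfrb, receptors of mesenchymal cells, were detected on every array, and none of the other 10 on more than 2. Summed over the 12 markers, the signal ran from 1054.1 to 1187.6 with vehicle and from 1065.2 to 1078.7 with insulin. Those 10 markers had median signals of 72.7 to 76.5, under the lowest detected signal. Their part of the sum is therefore background, and the sum is a weak check of cell types. Pdgfra itself had a difference of -0.43 ± 0.16 that did not pass (adjusted p = 0.359), and the part of such cells in the results below was not tested.

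Of the 26 probes of the hypoxia genes, 18 were detected on at least 3 arrays, and these covered 8 of the 10 genes. A probe could pass this filter through the group where it was high. Bnip3 and Adm, with 1 probe each, were detected on 0 of 6 arrays and were not tested.

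Ankrd37 encodes a small ankyrin repeat protein and is a direct HIF target. Its single probe gave signals of 118.9, 126.7 and 117.9 on the 3 vehicle arrays and of 86.9, 93.6 and 96.9 on the 3 insulin arrays. Every insulin array lay below every vehicle array, and the signals of the 2 groups had means of 121.2 ± 4.8 and 92.5 ± 5.1 (SD, n = 3 each). All 6 signals were above the lowest detected signal of their array, but the insulin signals stood close to it. After correction and normalisation the log2 intensity was 6.0 ± 0.11 with vehicle and 5.08 ± 0.17 with insulin (SD, n = 3 each), a difference of -0.92 ± 0.13 (standard error), or 1.89-fold lower with insulin.

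The size of that difference changed with the correction used. No background was subtracted and no offset added in the authors' deposited processed values, and on them it was -0.41 ± 0.07 on the log2 scale, and with normexp fitted to the signals, where the offset was 50 in place of 16, it was -0.48 ± 0.09. The parts of background and offset were not separated. With an array left out in turn it ran from -0.999 to -0.83. RNA was taken from whole cultures, so less Ankrd37 transcript in every cell and fewer cells with it cannot be told apart.

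**Figure D1:**
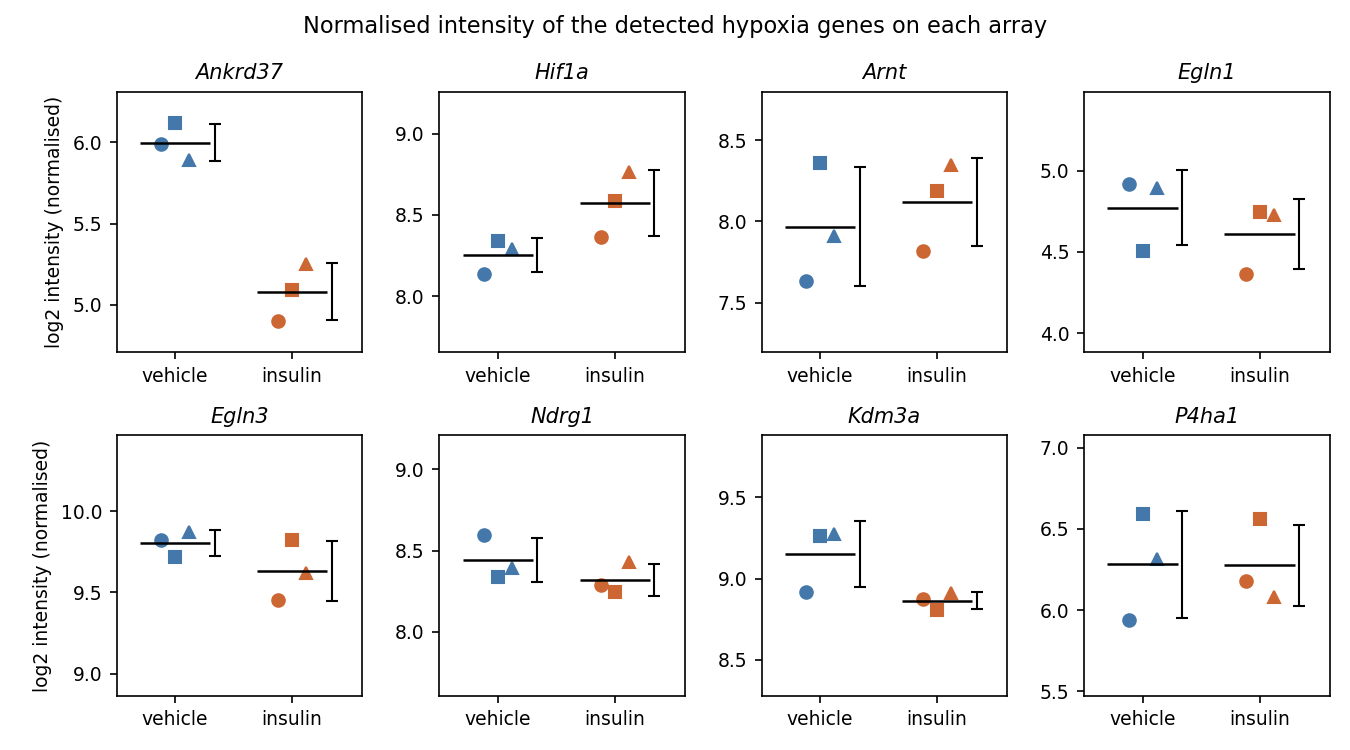
Normalised log2 intensity of the 8 detected hypoxia genes on each array (vertical axis), in vehicle (blue) and insulin (orange) cells. Circles, squares and triangles are replicates 1, 2 and 3, horizontal lines are group means, error bars are SD over 3 arrays, and every panel spans the same height. Ankrd37 shows the largest gap between its groups, at -0.92, and the groups of Hif1a and Kdm3a also do not overlap.

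**Figure D2:**
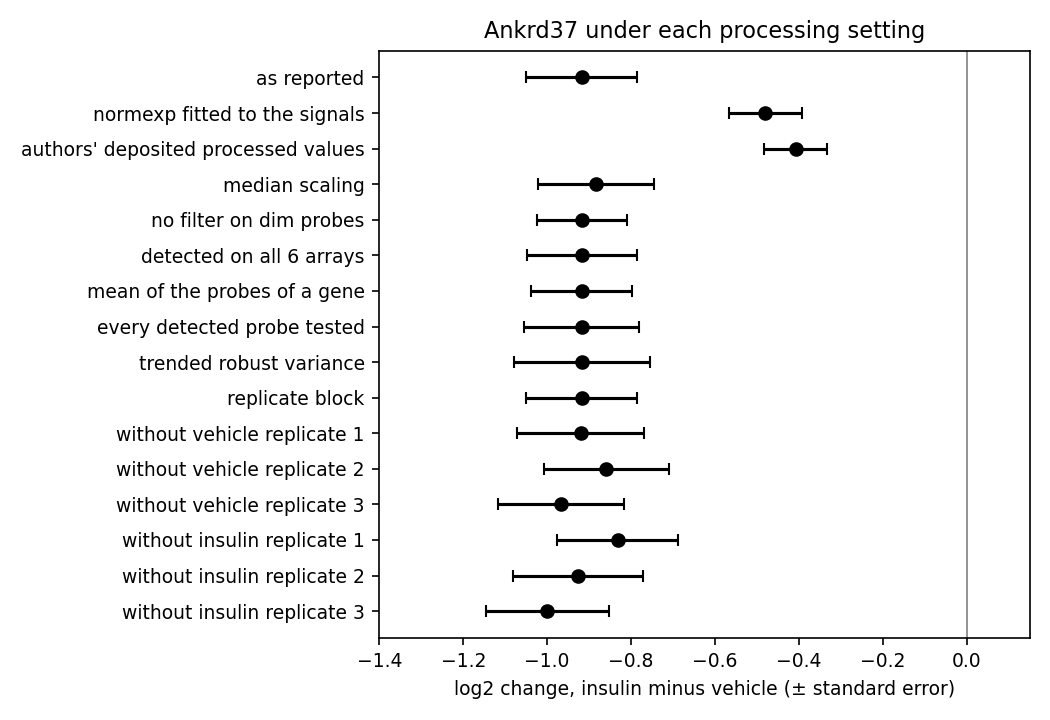
Log2 difference of Ankrd37, insulin minus vehicle (horizontal axis, point and standard error), as reported and under each of 15 processing alternatives (vertical axis). The difference is negative in all 16 and is smallest on the authors' deposited processed values, at -0.41.

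Neither transcription factor subunit passed the threshold, and both had positive differences. Hif1a, the oxygen-regulated alpha subunit, had signals of 340.2, 379.6 and 377.7 with vehicle and of 377.8, 434.6 and 503.8 with insulin on its single detected probe. The lowest insulin signal lay just under the highest vehicle signal before normalisation, and the groups did not overlap after it. The normalised log2 intensity was 8.25 ± 0.11 with vehicle and 8.57 ± 0.20 with insulin, a difference of 0.32 ± 0.14 that did not pass the threshold (limma adjusted p = 0.403). The unadjusted 95% interval ran from 0.03 to 0.60. The difference was positive in all 15 alternatives, from 0.22 to 0.42, with adjusted p-values from 0.299 to 0.658. The other 2 Hif1a probes were detected on 2 arrays and on 0.

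Arnt, the constant beta subunit, was read by 6 probes, of which 5 were detected. The brightest gave signals of 254.2, 383.2 and 303.3 with vehicle and of 276.6, 347.0 and 392.2 with insulin. The groups overlapped widely, and vehicle replicate 1 was the lowest of the 6. The log2 difference was 0.15 ± 0.18 (adjusted p = 0.815), and without vehicle replicate 1 it was -0.018. It was 0.34 without vehicle replicate 2, 0.30 without insulin replicate 1 and 0.035 without insulin replicate 3. The other 4 detected probes gave differences of 0.04, 0.09, -0.08 and 0.14, each within its standard error of 0.13 to 0.18.

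The prolyl hydroxylases, which shut HIF down and are themselves HIF targets, stood at very different places on the array's range. Egln3 (PHD3) was bright on its main probe, with signals of 979.4, 902.6 and 1007.0 with vehicle and of 740.6, 946.3 and 858.6 with insulin. The insulin arrays tended lower, but insulin replicate 2 lay above vehicle replicate 2, so the groups overlapped. The log2 difference was -0.17 ± 0.13 (adjusted p = 0.692), with an unadjusted 95% interval from -0.45 to 0.11. Without insulin replicate 1 it was -0.082, and without insulin replicate 2 it was -0.27. A further Egln3 probe gave -0.20 ± 0.15, but its signals of 73.3 to 86.2 were near background and it was detected on 1 insulin array.

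Egln1 (PHD2), the main oxygen sensor in most cells, was dim. Its brightest probe gave signals of 86.7, 80.4 and 87.8 with vehicle and of 77, 85.8 and 85.0 with insulin, and it was detected on 2 of the 3 insulin arrays. The log2 difference was -0.16 ± 0.15 (adjusted p = 0.752), while a further probe gave 0.08 ± 0.13. The groups overlapped on both probes. The first difference was -0.038 without insulin replicate 1, -0.091 without vehicle replicate 1, -0.10 without vehicle replicate 3 and -0.29 without vehicle replicate 2. It was -0.067 with normexp and -0.054 on the authors' deposited processed values.

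Among the HIF target genes, Kdm3a had the most probes to compare. It encodes a histone demethylase that removes methyl groups from lysine 9 of histone H3. The brightest probe gave signals of 544.1, 674.4 and 681.1 with vehicle and of 516.1, 498.7 and 550.8 with insulin. Vehicle replicate 1 lay among the insulin arrays before normalisation, and after it the groups did not overlap. The normalised log2 intensity was 9.15 ± 0.20 with vehicle and 8.86 ± 0.05 with insulin, a difference of -0.29 ± 0.13 that did not pass the threshold (limma adjusted p = 0.448). A second probe gave 264.6, 326.7 and 297.0 with vehicle and 230.3, 260.4 and 246.7 with insulin, which did not overlap even before normalisation. One more gave 188.7, 196.7 and 246.9 with vehicle and 170.1, 194.5 and 193.9 with insulin, where 2 insulin arrays overlapped the vehicle range. Those probes had log2 differences of -0.33 ± 0.14 and -0.23 ± 0.15. The differences of all 3 detected Kdm3a probes were negative, but the probes read the same gene on the same arrays and are not independent. The difference of the brightest probe was negative in all 15 alternatives, from -0.40 to -0.23, with adjusted p-values from 0.331 to 0.719.

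Ndrg1, a stress-responsive gene linked to differentiation and metastasis control, gave signals of 447.9, 379.8 and 401.3 with vehicle and of 359.8, 359.1 and 410.2 with insulin. The log2 difference was -0.12 ± 0.13 (adjusted p = 0.791). A second probe of nearly the same brightness, with 402.4, 379.1 and 363.3 against 349.1, 430.9 and 401.0, gave 0.07 ± 0.14. The 2 probes differed in sign, so no direction can be given for Ndrg1. P4ha1, the catalytic subunit of collagen prolyl hydroxylase, gave 117.0, 154.3 and 139.6 with vehicle and 127.7, 154.2 and 127.8 with insulin. Its log2 difference was -0.01 ± 0.17 (adjusted p = 0.997), and its further probe gave -0.15 ± 0.14.

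Bnip3, a mitochondrial protein of mitophagy and cell death, had signals of 71.5 to 77.7 over the 6 arrays. Adm, the vasodilator peptide adrenomedullin, had signals of 71.2 to 76.3. Both ranges lay under the lowest detected signal of every array, 79.2, and were not above background in either group, so no fold is given. These are textbook targets of HIF, but each rested on 1 probe, and a probe that reads poorly and a low transcript cannot be told apart here.

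**Figure D3:**
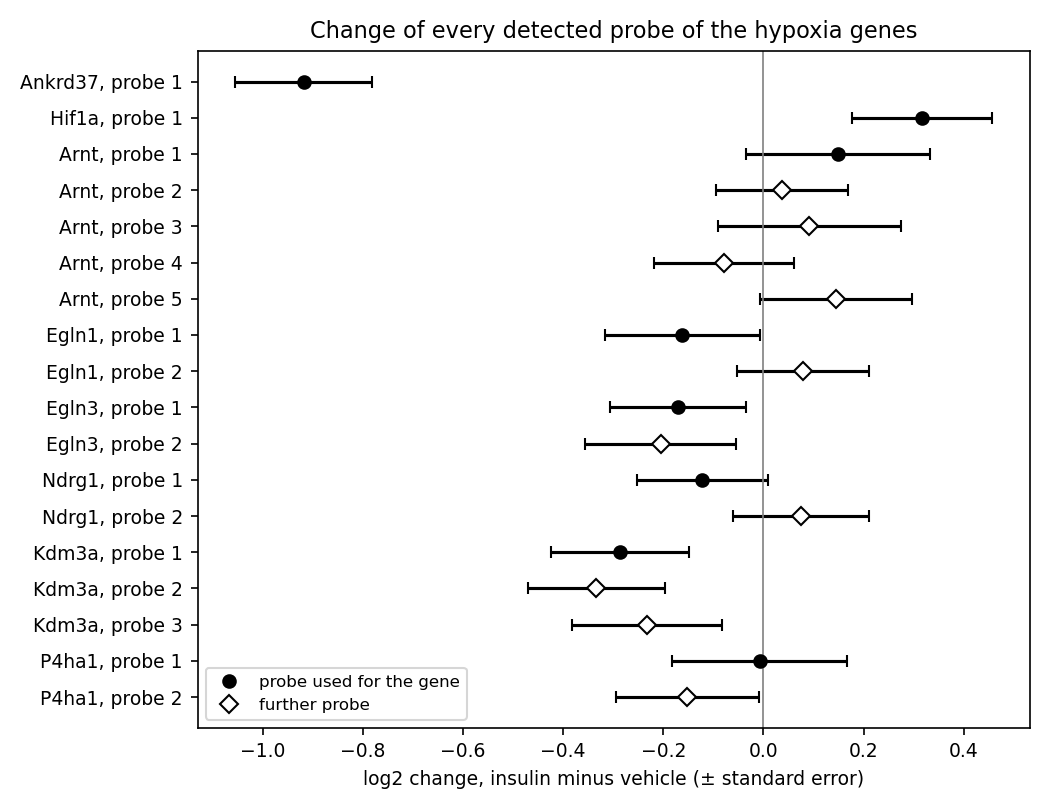
Log2 difference, insulin minus vehicle (horizontal axis, point and standard error, n = 3 per group), of each of the 18 detected probes of the hypoxia genes (vertical axis). Filled circles are the brightest probe of each gene and open diamonds further probes. The 3 Kdm3a probes lie on the negative side, and the probes of Ndrg1, Egln1 and Arnt lie on both sides of 0.

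Over the 8 tested genes, 1 was called, Ankrd37, which was chosen for it, and 7 were not, against 0.464% of all genes called. Nothing is read from that count, because the comparison chose the gene. Over the 7 without Ankrd37 the median log2 difference was -0.12, against -0.02 over all 9478 genes, and 5 of the 7 were negative, against 54.0% of all genes. The groups did not overlap for 2 of the 7 (Hif1a and Kdm3a), against 15.9% of all genes tested. At an unadjusted p under 0.05 the same genes made 2 of 7, against 11% of all genes. The median of the 7 is the brightest-probe value of Ndrg1, for which no direction can be given. Of the 5 negative genes, Ndrg1 and Egln1 had a further probe with a positive difference. With Ankrd37 included the median of the 8 was -0.14, and without vehicle replicate 3 it was -0.047. It was -0.061 when each gene was read as the mean of its detected probes. Taken array by array, the median of the 8 had an SD of 0.095 within groups. The alternatives and this SD include Ankrd37, which was chosen by its own difference, and were not taken for the 7 alone.

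The rest of the pathway was read through 4 lists of other genes, of which 53 of 70 genes named on the array were tested. Of these, 1 was called, Ccng2, which was lower, against 0.464% of all genes called and 0.338% called lower. A negative difference was found in 35 of 53, against 54.0% of all genes, with a median of -0.04, against -0.02. The groups did not overlap, in either direction, for 7 of the 53, against 15.9% of all genes. Oxygen sensing and HIF machinery held 14 tested genes, with 0 called by limma and a median of 0.02. At an unadjusted p under 0.05 there were 0, against 11% of all genes. Cited2, which competes with HIF for its coactivators, had a difference of -0.24 ± 0.13 (adjusted p = 0.513), and of -0.12 as the mean of its probes. Vhl, the recognition subunit that binds hydroxylated HIF, had one of 0.22 ± 0.14 (adjusted p = 0.617), and of 0.10 without vehicle replicate 3. Crebbp, a coactivator, stood at 0.36 ± 0.26 and, without insulin replicate 3, at 0.82, where it was past the threshold (adjusted p = 0.0135; over all alternatives from 0.0135 to 0.969). Hif3a, an alternative alpha subunit, stood at -0.17 ± 0.13 and was detected on 1 insulin array. Epas1 (HIF-2 alpha) and Arnt2 were detected on fewer than 3 arrays and were not tested.

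HIF targets of glucose transport and glycolysis held 14 tested genes, with 0 called by limma, 4 at an unadjusted p under 0.05, 12 negative and a median of -0.06. Over all genes 0.464% were called, 11% had such a p and 54.0% were negative. Pdk1, which keeps pyruvate out of mitochondria, had signals of 187.2, 205.1 and 208.9 with vehicle and of 171.8, 170.1 and 146.5 with insulin. Its groups did not overlap, and its difference of -0.45 ± 0.14 did not pass (adjusted p = 0.238). Hk1, a hexokinase, stood at 0.47 ± 0.15 (adjusted p = 0.278), with 0.27 under normexp and 0.24 on the authors' deposited processed values. Pfkl, a phosphofructokinase, stood at -0.30 ± 0.14 (adjusted p = 0.442), with -0.20 without insulin replicate 3 and -0.12 as the mean of its probes. Slc16a3, the lactate exporter, was above background with vehicle (85.8, 84.5 and 81.3) and on none of the insulin arrays (78.9, 75.9 and 78.7). It passed the detection filter through the vehicle arrays alone, so its direction and its p-value are no evidence of a change. It is 1 of the 4 and of the 12 above, and is also in the counts over the 4 lists together. Set against the lowest detected value on the normalised log2 scale (offset 16), the difference was at least 1.19-fold, lower with insulin. It did not pass (limma adjusted p = 0.359). That bound holds for this correction alone. The log2 difference of Slc16a3 was -0.34 there, -0.14 with normexp and -0.11 on the authors' deposited processed values. Ldha, Pgk1 and Slc2a1, classic HIF targets, stood at -0.13, -0.052 and -0.0049, each within its standard error.

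HIF targets of mitochondria, stress, glycogen and chromatin held 16 tested genes, of which 1 fell (Ccng2), 15 did not pass, and 10 were negative, with a median of -0.13. Over all genes 0.338% were called lower and 54.0% were negative. Ccng2, a cyclin of resting cells that is also a FOXO target, had signals of 132.1, 142.3 and 149.5 with vehicle and of 94.6, 105.2 and 107.4 with insulin. It fell by 0.95 ± 0.13 on the log2 scale (limma adjusted p = 0.0058). The difference was -0.56 with normexp and -0.48 on the authors' deposited processed values, where it still passed. Its call was lost without vehicle replicate 3 (adjusted p = 0.0659) and without the filter on dim probes (adjusted p = 0.0953; over all alternatives from 0.000295). Fam162a, a mitochondrial protein of hypoxic cell death, stood at -0.42 ± 0.13 (adjusted p = 0.228) with groups that did not overlap. Gbe1, the glycogen branching enzyme, stood at 0.42 ± 0.16 (adjusted p = 0.334), and at 0.24 without insulin replicate 2. Its groups did not overlap either, with insulin higher. Higd1a, a regulator of the respiratory chain, stood at 0.32 ± 0.15 (adjusted p = 0.457). With normexp Gbe1 and Higd1a were at 0.19 and 0.14, and on the authors' deposited processed values at 0.16 and 0.12. Bnip3l, the relative of Bnip3, stood at -0.21 ± 0.14.

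HIF targets that are secreted, at the cell surface, or act on matrix or iron held 9 tested genes of 18 on the array. Of the 9, 0 were called by limma, against 0.464% of all genes. A negative difference was found in 7 (54.0% of all genes), with a median of -0.02. At an unadjusted p under 0.05 there was 1, against 11% of all genes. The 1 was Vegfa, the angiogenic growth factor, with signals of 803.3, 722.9 and 701.3 with vehicle and of 936.5, 917.4 and 1002.5 with insulin. Its groups did not overlap in the direction opposite to Ankrd37, and its difference of 0.41 ± 0.12 did not pass (adjusted p = 0.197). Whether its probe also reads the transgene was not tested, and Myc, the other transgene, stood at -0.03 ± 0.16 (adjusted p = 0.969). Plod2, a collagen lysyl hydroxylase, stood at -0.20 ± 0.13, Angptl4, a lipoprotein lipase inhibitor, at -0.18 ± 0.14 and Mif, a cytokine, at 0.12 ± 0.13. Car9, Stc1, Stc2, Edn1 and Cxcr4, known HIF targets, were detected on fewer than 3 arrays.

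**Figure D4:**
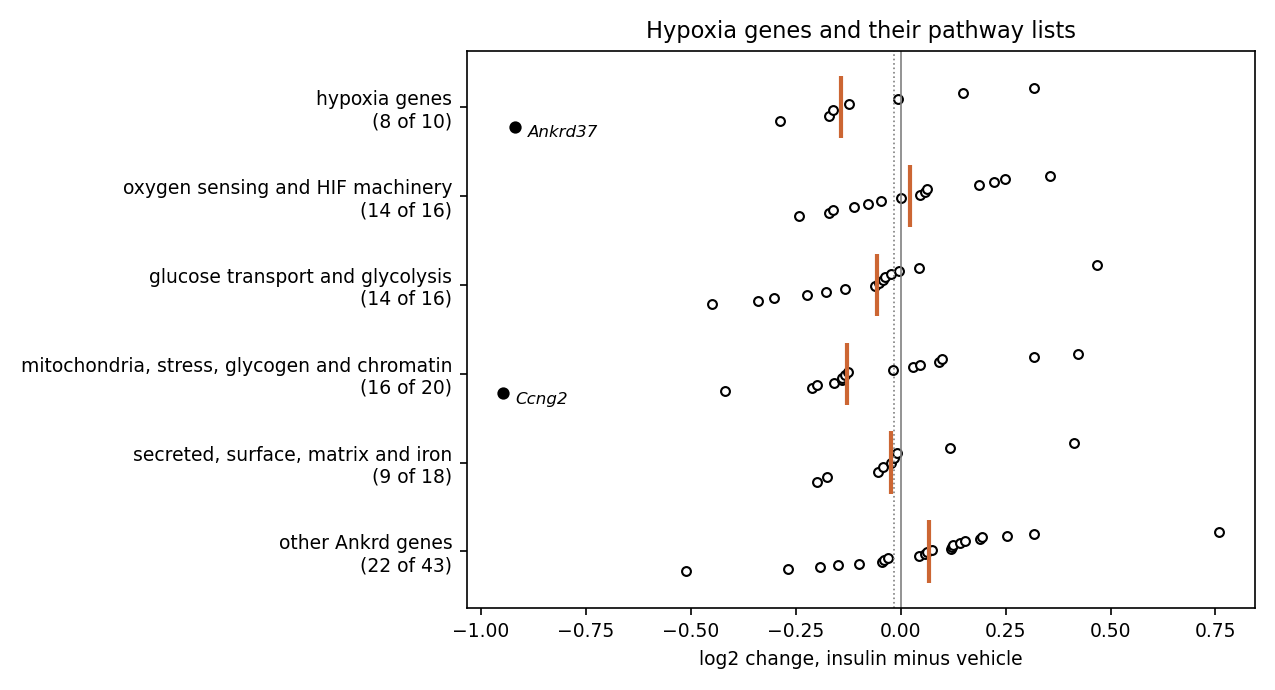
Log2 difference, insulin minus vehicle (horizontal axis), of each tested gene (points) in the hypoxia genes, the 4 pathway lists and the other Ankrd genes (vertical axis, with tested genes of those on the array). Filled points had an adjusted p under 0.05, orange bars are list medians and the dotted line is the median of all genes, -0.02. Ankrd37, at -0.92, and Ccng2, at -0.95, are the lowest points, and Ankrd11, at 0.76 and not called, is the highest.

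The genes most like Ankrd37 over the 6 arrays, by Pearson correlation of normalised log2 intensity among 9477 other genes, were Selenbp2 (r = 0.9995), Pcmtd2 (0.99), Zfp654 (0.99), Narf (0.99) and Saal1 (0.99). With 2 groups of 3 arrays such values rest largely on the difference between groups, and the highest of many are high by selection. All 5 were lower on every insulin array than on any vehicle array, with log2 differences of -0.62, -0.55, -0.26, -0.67 and -0.26. Selenbp2, a selenium-binding protein, has a near-identical relative in the mouse, Selenbp1, that its probe may also read. Among the other hypoxia genes, Kdm3a had the highest correlation with Ankrd37, at 0.76, and Hif1a the lowest, at -0.61.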

How the data were processed

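RNA of 3 vehicle-treated and 3 insulin-treated samples was read on single-colour Illumina beadchips. The authors' deposited non-normalized table held, per the file headers, a linear intensity and a detection p-value for each of 45281 probes, made with GenomeStudio per the submitters' processing notes. The version and settings are not given in the sources used here. Within 3.33e-06, the authors' deposited processed intensity values equalled a quantile normalization of those signals. Groups came from the sample titles. Nothing says that replicates were separate cultures, so the spread behind each p-value is that of these 6 samples and may be technical.

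Signals were corrected with neqc in limma 3.58.1 (R 4.3.3, offset 16), which estimates background from the detection p-values, normalises by quantiles and takes log2. Symbols came from the platform annotation: 34885 probes had 1 symbol, 18 several and 10378 none. Probes detected on at least 3 arrays were kept, and the brightest probe stood for a gene, giving 9478 genes. Insulin was compared with vehicle across all genes by lmFit and eBayes (two-sided, Benjamini-Hochberg, threshold 0.05), tested on simulated data. Further probes were read from a fit over all 17482 detected probes. Promoter sequences are from RefSeq. The number of arrays limits the precision.

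The members, pathway lists and alternatives were chosen with earlier results of these data known. The named genes are the members, the 4 smallest p-values of each list, Vegfa, Myc and the 5 genes most like Ankrd37. Other genes were named after their values were seen.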

Additional observations from a re-analysis of the deposited data

How the results depend on the processing

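The number of genes called was 44 and depended on the settings. It was 29 with normexp fitted to the signals and an offset of 50 (13 higher, 16 lower), 22 on the authors' deposited processed values (11 and 11), 10 with every detected probe tested, 83 with a trended robust variance and 0 without the filter on dim probes, where 19057 genes were tested and 1645 had an unadjusted limma p under 0.05. Leaving out an array gave 3 to 69 calls. With the replicate number as a block (replicate block) 75 genes were called. Same-numbered vehicle and insulin arrays deviated from their group means with correlations of 0.09, 0.15 and 0.13, and each array correlated best with its own number, a hint from the data and not from the design. Ankrd37 kept its direction in 15 of 15 alternatives and lost its call in 3, namely on the authors' deposited processed values, without the filter on dim probes and without vehicle replicate 2. Its difference on these same arrays chose the gene, so those counts describe the processing and are no evidence for its change. No other hypoxia gene gained a call in any alternative. Of 119 values of members under alternatives, 112 kept their direction. The 7 that turned came from leaving out an array: Arnt to -0.018 and Ndrg1 to 0.12 without vehicle replicate 1, Ndrg1 to 0.020 and P4ha1 to 0.0075 without vehicle replicate 3, and P4ha1 to 0.15, 0.040 and 0.088 without vehicle replicate 2, insulin replicate 1 and insulin replicate 3. In both Ndrg1 cases the brightest probe changed, and otherwise the cause was not tested. Myc turned to 0.035, 0.10 and 0.0024 without vehicle replicate 2, vehicle replicate 3 and insulin replicate 3. Without an array, Arnt ran from -0.018 to 0.34, Ndrg1 from -0.18 to 0.12, P4ha1 from -0.18 to 0.15, Myc from -0.24 to 0.10 and the members' median from -0.19 to -0.047, the last without vehicle replicate 3.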

Other observations

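Ankrd37 shares its name with a large group of genes defined by ankyrin repeats, and none of the others tested passed the threshold. Of 43 other genes named Ankrd on the array, 22 were tested, with 0 called by limma, against 0.464% of all genes. At an unadjusted p under 0.05 there were 3, against 11% of all genes. The groups did not overlap for 4 of the 22, against 15.9% of all genes. Of the 22, 14 were positive and 8 negative, against 54.0% negative over all genes, with a median log2 difference of 0.07. Ankrd1, a target of mechanical and YAP signalling, was nearest to Ankrd37 in direction, with signals of 351.3, 340.5 and 358.6 with vehicle and of 256.1, 235.6 and 296.7 with insulin. Its groups did not overlap, and its difference of -0.51 ± 0.13 did not pass (limma adjusted p = 0.113, and 0.0380 to 0.432 under the alternatives). Ankrd11, a chromatin regulator, stood at 0.76 ± 0.24 (adjusted p = 0.242), with vehicle replicate 1 at a signal of 164.0 and the other 5 arrays at 277.8 to 419.2. Without vehicle replicate 1 its difference was 0.37. Ankrd61 stood at 0.32 ± 0.12 and Ankrd49 at 0.25 ± 0.12, neither past the threshold. Ankrd61 was dim, with signals of 85.1 to 97.0, and stood at 0.14 with normexp and 0.11 on the authors' deposited processed values. Under the same settings Ankrd49 stood at 0.22 and 0.21.

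Within the hypoxia genes, Egln1 and Egln3 had a correlation of 0.83 over the 6 arrays, and Hif1a and Arnt one of 0.74, given as descriptions over 6 arrays that share the groups. Ndrg1 and P4ha1 had one of -0.76.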
